A study of Mus musculus with 12 samples.

Results

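Pyruvate dehydrogenase and its regulators are described here through 10 genes: the kinase genes Pdk1, Pdk2, Pdk3 and Pdk4, the phosphatase genes Pdp1 and Pdp2, and the subunit genes Pdha1, Pdhb, Dlat and Pdhx. They were taken by gene symbol from a table of 24421 entries, where all 10 were found. All 10 passed the filter on low counts, as did 13937 entries in all. The samples were tibialis anterior muscles, a fast hindlimb muscle, of 12 male mice aged 4 months: 6 of strain C57Bl/6, called WT, and 6 of strain mdx/mTR. The name mdx stands for a mutation of Dmd, which encodes dystrophin, and mTR for loss of the telomerase RNA, whose gene is in the table as Terc. The labels do not give the number of generations without telomerase, and they do not say whether the WT mice were littermates.

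The pyruvate dehydrogenase complex turns pyruvate into acetyl-CoA inside mitochondria and so joins glycolysis to the citric acid cycle. Its E1 enzyme (Pdha1 and Pdhb) removes carbon dioxide from pyruvate, the E2 core (Dlat) passes the acetyl group to coenzyme A, and Pdhx anchors the E3 enzyme Dld to that core. Kinases encoded by Pdk1 to Pdk4 phosphorylate E1 alpha and switch the complex off, whereas the phosphatases encoded by Pdp1 and Pdp2 remove the phosphate and switch it on. In skeletal muscle Pdk4 is known for its rise in fasting, when fat replaces glucose as fuel. Counts of mRNA show neither phosphorylation nor the activity of the complex.

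In mdx/mTR muscle Pdk3 rose 2.51-fold, while Pdp2 fell to 54.9% of WT, Pdk1 to 72.6%, Pdhx to 76.0% and Pdk2 to 82.5%. The other 5 genes did not pass the test: Pdk4 (82.7% of WT), Pdp1 (100.1%), Pdha1 (90.4%), Pdhb (93.5%) and Dlat (87.5%). Of all tested genes, 48.3% had an adjusted p under 0.05 (edgeR quasi-likelihood test), 25.0% higher and 23.4% lower in mdx/mTR. That split was 3479 higher and 3257 lower, but 5596 and 1560 when library totals alone set the scale, and 4995 and 1074 when 10 muscle fibre markers did. The members, with 5 of 10 called, 1 higher and 4 lower, were called about as often as the rest of the tested genes. For 4 of the 10 (Pdk1, Pdk3, Pdp2 and Pdhx) the 6 mdx/mTR libraries did not overlap the 6 WT libraries, against 25.2% of all tested genes. The median log2 fold change was -0.23 over the members and 0.01 over all tested genes.

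Library totals ran from 35136327 to 60330410 counts. Dmd checked the labels: it lay between 228 and 244 CPM (counts per 1 M counts of the library, with TMM scaling) in WT, and between 35.2 and 56.4 CPM in mdx/mTR. Terc had 2 counts in all and checked nothing. Among the libraries 3 stood apart in values used here: WT replicate 4 (highest Pdk4 and Pdp2), WT replicate 2 (highest slow fibre markers of WT) and mdx/mTR replicate 5 (lowest muscle fibre markers of mdx/mTR). Defining markers of muscle fibres were abundant in every library, with summed levels of 10 genes from 143743 to 159871 CPM in WT and from 119910 to 162999 CPM in mdx/mTR. Of these 10 markers 1 rose and 2 fell. Of 7 markers of slow and oxidative fibres 5 rose and 1 fell, while their summed level was 701 to 2243 CPM in WT and 499 to 666 CPM in mdx/mTR. In whole muscle, fewer cells of a type and less RNA per cell cannot be told apart.

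The members lie on 8 chromosomes (GRCm38, the assembly that mm10 names; gene models of GENCODE M21). The 2 genes with the largest changes are Pdk3, on chrX:93764607-93832201, and Pdp2, on chr8:104591451-104599026. The most abundant, Pdk4, is on chr6:5483351-5496309, and Pdk2 is on chr11:95026258-95041354. The promoters of these 4 genes are shown because they are the genes whose levels the account turns on, and because 3 of them hold letters of a motif searched for. Each runs from 250 bases before to 50 bases after the start site (RefSeq, GRCm38.p6, on the strand of the gene), and capitals mark ACGTG on either strand, the core bound by hypoxia-inducible factors (HIF). They read, 5′ to 3′:
Pdk3 (chrX:93832101-93832400, minus strand): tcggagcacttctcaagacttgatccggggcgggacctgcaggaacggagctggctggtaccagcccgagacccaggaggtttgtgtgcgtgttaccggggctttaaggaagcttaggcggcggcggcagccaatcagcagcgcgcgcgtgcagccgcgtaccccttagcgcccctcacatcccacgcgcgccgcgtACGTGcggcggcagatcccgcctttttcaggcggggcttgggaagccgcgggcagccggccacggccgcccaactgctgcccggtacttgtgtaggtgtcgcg
Pdp2 (chr8:104591222-104591521, plus strand): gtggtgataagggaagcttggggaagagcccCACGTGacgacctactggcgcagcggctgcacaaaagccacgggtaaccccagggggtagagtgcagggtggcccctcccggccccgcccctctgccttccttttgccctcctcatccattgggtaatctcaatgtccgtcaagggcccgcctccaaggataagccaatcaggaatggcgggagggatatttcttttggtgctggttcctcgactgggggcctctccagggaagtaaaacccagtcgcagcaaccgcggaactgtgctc
Pdk2 (chr11:95041322-95041621, minus strand): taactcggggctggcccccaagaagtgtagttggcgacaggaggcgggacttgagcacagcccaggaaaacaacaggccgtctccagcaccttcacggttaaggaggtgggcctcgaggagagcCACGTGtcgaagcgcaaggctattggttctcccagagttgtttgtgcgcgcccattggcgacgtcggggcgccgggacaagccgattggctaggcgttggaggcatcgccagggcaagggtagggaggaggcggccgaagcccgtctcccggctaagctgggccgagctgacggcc
Pdk4 (chr6:5496229-5496528, minus strand): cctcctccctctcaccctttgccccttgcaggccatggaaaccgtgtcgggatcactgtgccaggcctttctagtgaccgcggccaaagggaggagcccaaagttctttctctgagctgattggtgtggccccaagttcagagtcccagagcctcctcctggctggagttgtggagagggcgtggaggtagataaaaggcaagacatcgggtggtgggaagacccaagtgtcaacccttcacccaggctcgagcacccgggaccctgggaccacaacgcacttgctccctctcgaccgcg
The match in Pdk3 starts 53 bases before the start site. In Pdp2 and Pdk2 the matches on both strands overlap as CACGTG, a palindrome that is also an E-box, starting 219 and 126 bases before the start site. Another promoter window of Pdk2, chr11:95040826-95041125, is not shown and held no ACGTG. Promoters were found for 9 of the 10 members, in 11 windows, and ACGTG occurred in 4 of these members (Pdhb is the fourth), against 28.7% of 10550 tested genes with a promoter. The FoxO letters GTAAACA and the ERR letters AAGGTCA, searched for on both strands, occurred in 0 of the 9, against 3.19% and 4.01% of those genes. These matches describe letters in a short window and say nothing of binding.

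The kinase genes were compared first. Pdk4 was the most abundant member per length in both groups, with 908 ± 246 CPM per kilobase of transcript for WT against 751 ± 187 for mdx/mTR (SD, n = 6 each). Pdk2, the isoform that is widespread in muscle, stood at 268 ± 14.5 and 221 ± 24.3 CPM per kilobase. Pdk1 stood at 17.5 ± 0.477 and 12.7 ± 1.49, and Pdk3 at 0.555 ± 0.140 and 1.39 ± 0.212. The 4 kinase genes thus spanned more than 3 orders of magnitude in WT, and the ranges of neighbouring kinases did not overlap in either group.

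**Figure D1:**
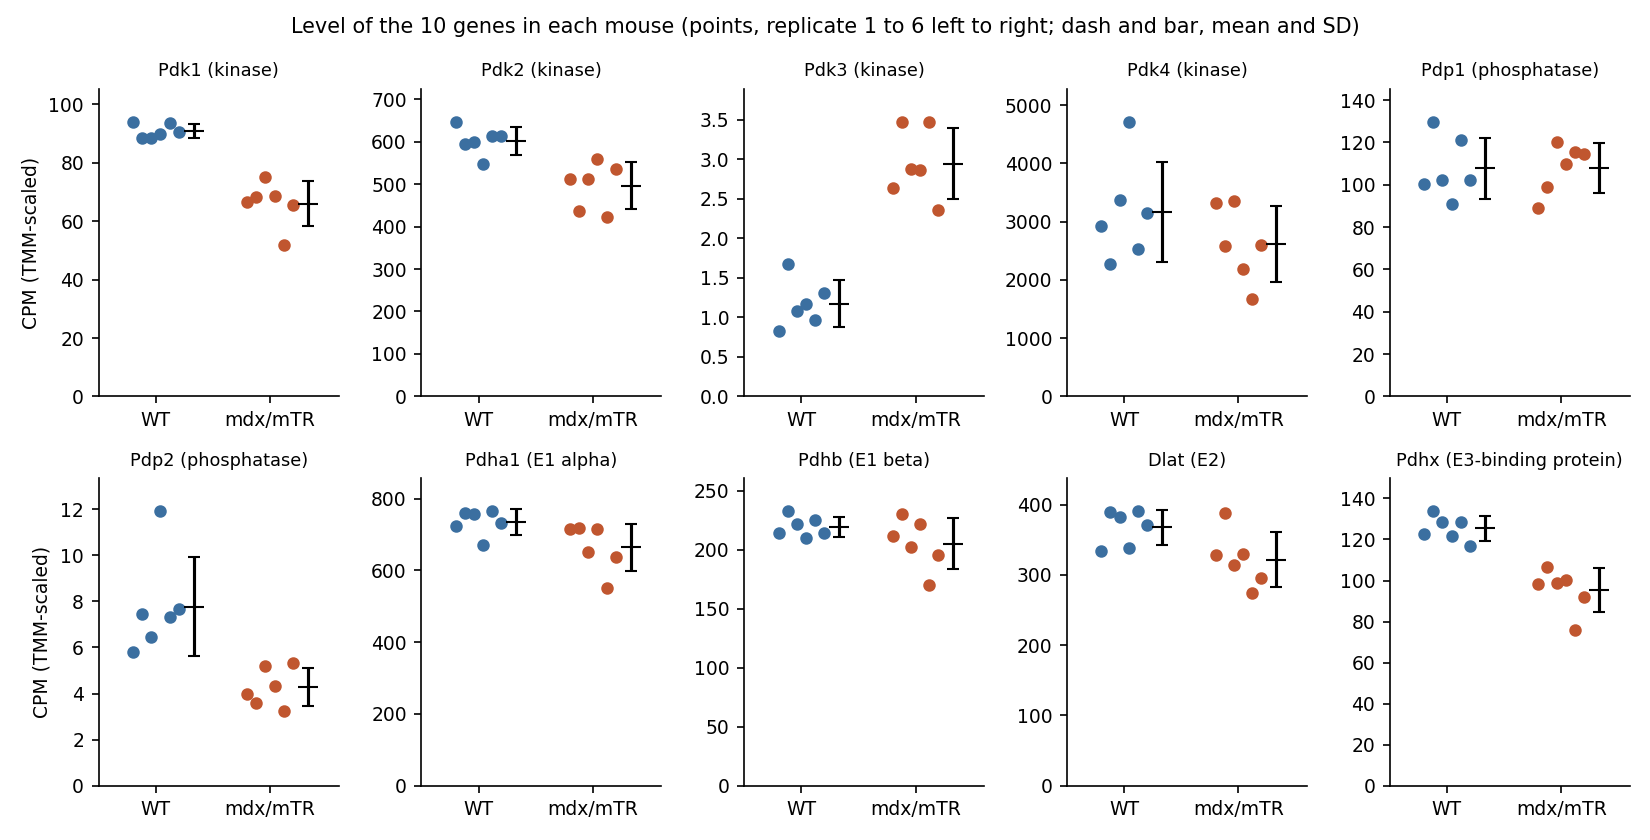
Level of each of the 10 genes (CPM, y axis from 0) in the 6 WT and the 6 mdx/mTR mice, with 1 point per mouse and the mean ± SD beside the points. The points of the groups are separate for Pdk1, Pdk3, Pdp2 and Pdhx and overlap for the other 6 genes.

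For Pdk3, the least abundant kinase gene, the WT libraries ran from 0.833 CPM over a median of 1.13 to 1.67 CPM, and the mdx/mTR libraries from 2.36 over 2.87 to 3.47 CPM. All 6 mdx/mTR libraries lay above all 6 WT libraries. The log2 fold change was 1.33 ± 0.17 (SE; adjusted p 3.2e-05 by edgeR). The depth behind this rise was small, with 30 to 60 counts per WT library and 105 to 226 per mdx/mTR library, but far above the floor of 3 counts.

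Markers of other cell types were also compared between the groups. All 10 macrophage markers rose, with summed levels of 92.7 to 160 CPM in WT and 271 to 761 CPM in mdx/mTR. Of 8 fibroblast markers 7 rose (1138 to 2149 CPM in WT, 2849 to 5793 CPM in mdx/mTR), and of 9 markers of satellite cells and myoblasts 7 rose and 1 fell (59.1 to 77.0 and 134 to 548 CPM). The single T cell marker tested, of 5, rose as well, and the sum of the 5 was 0.222 to 0.810 CPM in WT and 1.80 to 3.83 CPM in mdx/mTR. In contrast, 5 of 7 endothelial markers and 4 of 5 Schwann cell markers fell, and 0 of 5 tested adipocyte markers passed the test. None of these markers was at 0 throughout a group, unlike the red blood cell genes Hba-a1, Hba-a2, Hbb-bs and Hbb-bt, listed at 0 in all libraries. Within mdx/mTR, replicate 5 had the highest summed level of macrophage, fibroblast and myoblast markers and the highest level of Pdk3, at 3.472 CPM against 3.469 CPM in replicate 2. Within WT, Pdk3 was highest in replicate 2 (1.67 CPM), which had the highest sum of fibroblast markers but the lowest of myoblast markers (59.1 CPM). The macrophage markers of WT were highest in replicate 6. The part of these cells in the rise of Pdk3 was not tested.

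Pdk1, known as a target of HIF, fell. Its WT libraries were tightly grouped, from 88.5 over a median of 90.2 to 94.0 CPM, and the mdx/mTR libraries ran from 51.8 over 67.5 to 75.0 CPM. All 6 mdx/mTR libraries lay below the lowest WT library. The log2 fold change was -0.46 ± 0.07 (SE; edgeR, adjusted p 1.3e-04), and -0.28 scaled to the muscle fibre markers (adjusted p 0.0059), an alternative chosen after seeing the data.

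Pdk2 fell from 546 to 646 CPM in WT (median 606) to 424 to 560 CPM in mdx/mTR (median 513). Of the mdx/mTR libraries 5 lay below the lowest WT library, and only replicate 4 overlapped the WT range. The log2 fold change was -0.28 ± 0.07 (SE; edgeR, adjusted p 0.0065). The call was lost under other scalings: with totals only, and no TMM factor, the log2 fold change was -0.13 (adjusted p 0.0713), and with scaling to the 10 muscle fibre markers it was -0.096 (adjusted p 0.188). An antisense gene, Gm11513, lies within Pdk2 on the other strand, and the strand handling of the counts is not given in the sources used here.

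Pdk4 did not pass the test. It ran from 2279 over a median of 3038 to 4714 CPM in WT and from 1667 over 2585 to 3363 CPM in mdx/mTR, so that the groups overlapped widely. The log2 fold change was -0.27 ± 0.19 (SE; edgeR, adjusted p 0.248), with a 95% confidence interval from -0.68 to 0.13. A rise of more than 0.13 on the log2 scale therefore lies outside the interval, whereas a fall of up to 0.68 lies inside it. The value was also moved by single mice: it was -0.13 without WT replicate 4, -0.18 without mdx/mTR replicate 5 and -0.03 without both (adjusted p 0.888).

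Among the 8 members other than the rare Pdk3 and Pdp2, Pdk4 varied most between mice. Its coefficient of variation (SD over mean) was 27.1% in WT and 24.9% in mdx/mTR, higher than in 97.5% and 93.5% of the 9509 genes with a mean of at least 5 CPM. The medians over those genes were 7.15% and 9.07%. Pdk1, by comparison, varied by 2.72% in WT and 11.7% in mdx/mTR.

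As shares of the summed level of the 4 kinase genes per length, Pdk4 made up 75.2% ± 5.01 (WT) and 75.5% ± 4.33 (mdx/mTR), and Pdk2 made up 23.2% ± 4.72 and 23.0% ± 4.16 (SD, n = 6 each). Pdk1 made up 1.51% ± 0.278 and 1.31% ± 0.164. Pdk3 made up 0.0485% ± 0.0189 and 0.149% ± 0.0528, so that the kinase gene with the largest change remained the smallest part of the kinase mRNA. These shares are descriptions, with no test. They moved with the length correction: without it Pdk4 made up 81.3% and 81.7%.

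**Figure D2:**
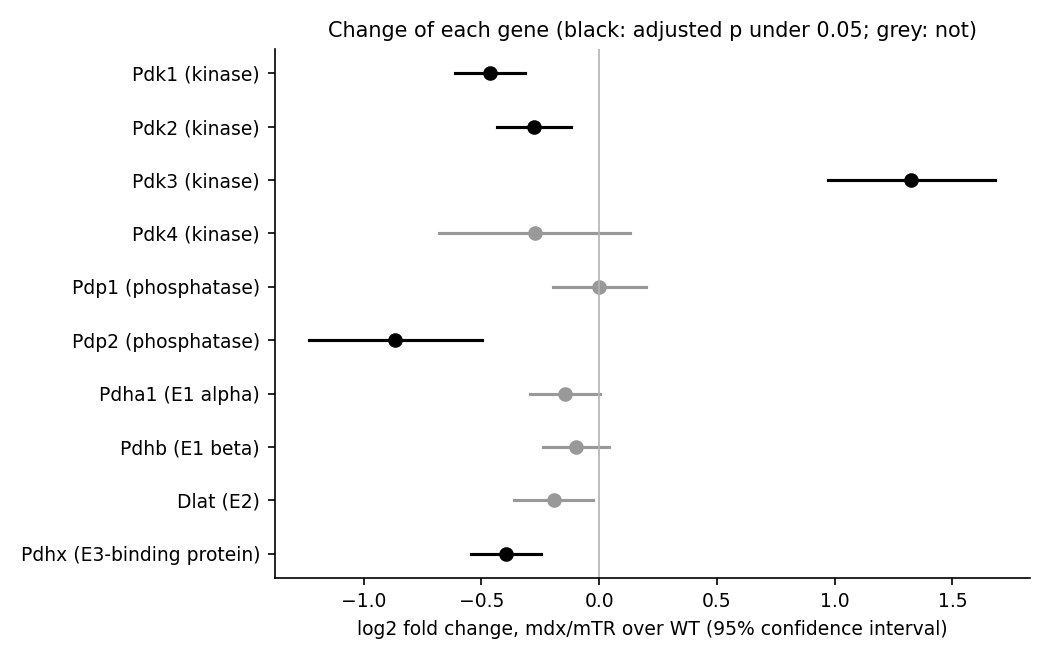
Log2 ratio of mdx/mTR to WT for each gene (points) with its 95% confidence interval (lines), black where the adjusted p was under 0.05. Pdk3 stands at 1.33 on the right, Pdp2 at -0.86 on the left, and the interval of Pdk4 is the widest of those that include 0.

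Of the phosphatase genes 1 fell and 1 did not pass the test. Pdp1 encodes the calcium-activated catalytic subunit that predominates in muscle, and Pdp2 the form known for its sensitivity to insulin. Pdp1 ran from 91.1 over a median of 102 to 130 CPM in WT and from 88.9 over 112 to 120 CPM in mdx/mTR, with wide overlap. Its log2 fold change was 0.0014 ± 0.092 (SE; edgeR, adjusted p 0.991) with a 95% confidence interval from -0.20 to 0.20, and its sign changed with the scaling and with the mice included.

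Pdp2 fell. Its WT libraries ran from 5.81 over a median of 7.40 to 11.9 CPM and its mdx/mTR libraries from 3.24 over 4.15 to 5.30 CPM. All 6 mdx/mTR libraries lay below the lowest WT library. The log2 fold change was -0.86 ± 0.17 (SE; edgeR, adjusted p 0.0010). WT replicate 4, at 11.9 CPM, stood apart from the other WT libraries, and without it the log2 fold change was -0.70 (adjusted p 0.0013).

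Per length, the ratio of Pdp1 to Pdp2 was 19.9 ± 5.08 for WT against 35.1 ± 7.09 for mdx/mTR (SD, n = 6 each). The WT mice spanned 10.4 to 23.6 and the mdx/mTR mice 29.2 to 48.3, without overlap. Such a ratio within a library does not depend on how libraries are scaled. The summed kinase mRNA exceeded the summed phosphatase mRNA 45.4 ± 13.6 times in WT and 37.9 ± 10.1 times in mdx/mTR, with ranges that overlapped (29.1 to 67.9 and 24.2 to 54.6).

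Of the subunit genes of the complex 1 of 4, Pdhx, passed the test. With TMM scaling all 4 had log2 fold changes below 0, a sign that Pdha1 and Pdhb did not keep with library totals alone, nor Pdha1, Pdhb and Dlat with fibre marker scaling. Pdhx ran from 117 over a median of 126 to 134 CPM in WT and from 75.9 over 98.6 to 107 CPM in mdx/mTR. The groups did not overlap. Its log2 fold change was -0.40 ± 0.07 (SE; edgeR, adjusted p 4.6e-04). It was -0.24 with library totals alone (adjusted p 0.0056) and -0.21 scaled to the muscle fibre markers (adjusted p 0.0538).

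Pdha1, the X-linked gene of E1 alpha that carries the phosphorylation sites, ran from 670 over a median of 745 to 765 CPM in WT and from 551 over 683 to 718 CPM in mdx/mTR. Of the mdx/mTR libraries 3 lay below the lowest WT library. Its log2 fold change was -0.14 ± 0.07 (SE; edgeR, adjusted p 0.0974), with a 95% confidence interval from -0.29 to 0.0029. Map3k15 overlaps the end of Pdha1 on the other strand.

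Dlat lay at the threshold. It ran from 334 over a median of 376 to 391 CPM in WT and from 274 over 321 to 389 CPM in mdx/mTR, and 5 mdx/mTR libraries lay below the lowest WT library while replicate 2 lay near the top of the WT range. The log2 fold change was -0.19 ± 0.08 (SE; edgeR, adjusted p 0.0530). It passed without mdx/mTR replicate 2 (-0.25, adjusted p 0.0067), without WT replicate 1 (-0.22, adjusted p 0.0409) and without WT replicate 4 (-0.22, adjusted p 0.0457), and DESeq2 (adjusted p 0.0338) and limma-voom (adjusted p 0.0437), as well as edgeR with DESeq2 size factors (adjusted p 0.0498), put Dlat past the threshold. Under the scaling to muscle fibre markers its value was 0.0016 (adjusted p 0.991).

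Pdhb ran from 210 over a median of 218 to 233 CPM in WT and from 170 over 207 to 230 CPM in mdx/mTR. The groups overlapped, with a log2 fold change of -0.097 ± 0.066 (SE; edgeR, adjusted p 0.238) and a 95% confidence interval from -0.24 to 0.044. Of the 50-base stretches of its transcript, 30.3% also occur in another gene, Gm6123, so the level of Pdhb is uncertain wherever the counting dropped or divided reads of both. For the other 9 members that share was at most 1.43%, for Pdk4. With library totals alone Pdha1 (0.0078) and Pdhb (0.056) had log2 fold changes above 0.

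The subunit genes were also set against each other within libraries. Per length, the ratio of Pdha1 to Pdhx was 5.16 ± 0.224 for WT against 6.14 ± 0.247 for mdx/mTR (SD, n = 6 each), with ranges of 4.84 to 5.49 and 5.80 to 6.39 that did not overlap. Dlat exceeded Pdhx 1.82 ± 0.103 and 2.10 ± 0.123 times, again without overlap (1.69 to 1.967 and 1.974 to 2.26). The ratio of Pdha1 to Pdhb, the partners of the E1 tetramer, was 1.78 ± 0.0498 in WT and 1.72 ± 0.0441 in mdx/mTR, and its ranges overlapped. These ratios, 11 in all, are given without a test.

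**Figure D3:**
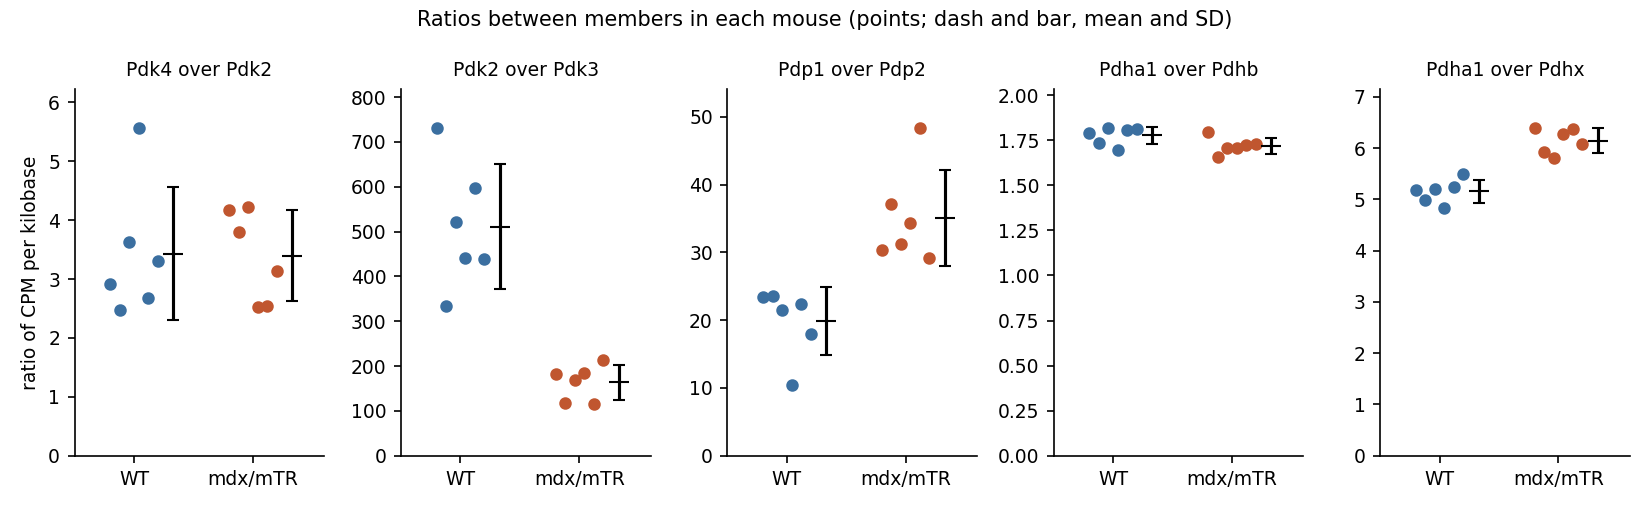
Ratios of CPM per kilobase between pairs of members (y axes from 0) in each mouse, with mean ± SD. The groups are separate for Pdk2 over Pdk3, Pdp1 over Pdp2 and Pdha1 over Pdhx, and overlap for Pdk4 over Pdk2 and Pdha1 over Pdhb.

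Ordered by level per length, WT muscle had Pdk4, Pdk2, Pdha1, Pdhb, Dlat, Pdhx, Pdp1, Pdk1, Pdp2 and Pdk3. Neighbours in this order did not overlap over the 6 WT mice, except Pdk2 and Pdha1 (268 and 258 CPM per kilobase), which kept this order in 5 of 6 mice. In mdx/mTR the order was the same but for 2 exchanges. Pdha1 stood above Pdk2 (233 and 221 CPM per kilobase, 5 of 6 mice, with overlap), and Pdk3 stood above Pdp2 (1.39 and 0.751 CPM per kilobase, 6 of 6 mice, without overlap). Both exchanges depended on the division by length. In mean CPM Pdha1 stood above Pdk2 in WT (734 and 602) and in mdx/mTR (664 and 497). Likewise Pdp2 stood above Pdk3 in WT (7.77 and 1.17 CPM) and in mdx/mTR (4.28 and 2.94 CPM).

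Variation from mouse to mouse was shared among the subunit genes, but not among all members. After centring log2 levels on the mean of each group, the 4 subunit genes had Pearson correlations with each other from 0.82 (Dlat and Pdhx) to 0.96 (Pdhb and Pdhx) over the 12 libraries. These points share a library, its depth and its scaling. The mouse mdx/mTR replicate 5 was the lowest mdx/mTR library for 8 of the 10 members, against 21.3% of all tested genes. Without it the correlations of the 4 genes were 0.68 to 0.88. Over all 12 libraries, mdx/mTR replicate 5 included, Pdk1 had correlations with the subunit genes from 0.47 (Dlat) to 0.79 (Pdhx). Those of Pdk2 ran from -0.011 (Dlat) to 0.48 (Pdha1). For Pdk1 as well, mdx/mTR replicate 5 was the lowest mdx/mTR library, at 51.8 CPM against 65.6 to 75.0 CPM in the others. The correlations of Pdk1 and Pdk2 with the subunit genes were not computed without mdx/mTR replicate 5, so Pdk1 may follow them through that mouse alone. Pdp1 had correlations with the subunit genes from -0.11 to -0.017, and Pdp2 from -0.15 to 0.13. Pdk4 went with Pdp1 at -0.64 over 12 libraries. Its correlation with Pdha1 was 0.14, but turned to -0.59 without mdx/mTR replicate 5 and was 0.47 without WT replicate 4.

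By the same measure, the 5 genes most like Pdha1 among 9508 with a mean of at least 5 CPM were Narfl (0.97), Ndufc2 (0.96), Mcur1 (0.95), Pdhb (0.95) and Dld (0.94). Ndufc2 encodes a subunit of respiratory complex I, and Dld the E3 enzyme of the complex itself. Dld fell in mdx/mTR, from 377 to 440 CPM in WT to 270 to 359 CPM (log2 fold change -0.28, edgeR adjusted p 0.0044). The fall of Dld did not pass with library totals alone (-0.13, adjusted p 0.0931) or scaled to the muscle fibre markers (-0.094, adjusted p 0.356).

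The 5 genes most like Pdk4 were Acot2 (0.92), B230312C02Rik (0.89), Zfp946 (0.88), Ttc1 (0.87) and Carkd (0.86). Acot2 encodes a mitochondrial thioesterase that cleaves long-chain acyl-CoA. Its correlation with Pdk4 was 0.97 within the 6 WT libraries and 0.88 within the 6 mdx/mTR libraries, and 0.82 over the 10 libraries left without WT replicate 4 and mdx/mTR replicate 5. Unlike Pdk4, Acot2 passed the test, lower by a log2 fold change of -1.35 ± 0.15 (SE; edgeR, adjusted p 1.2e-05), from 28.4 to 54.2 CPM in WT to 11.2 to 18.4 CPM. In a pair of mice with a like level of Pdk4, chosen after their values were seen, Acot2 stood at 18.4 CPM in mdx/mTR replicate 3 against 35.4 CPM in WT replicate 3, with 3363 and 3377 CPM of Pdk4.

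**Figure D4:**
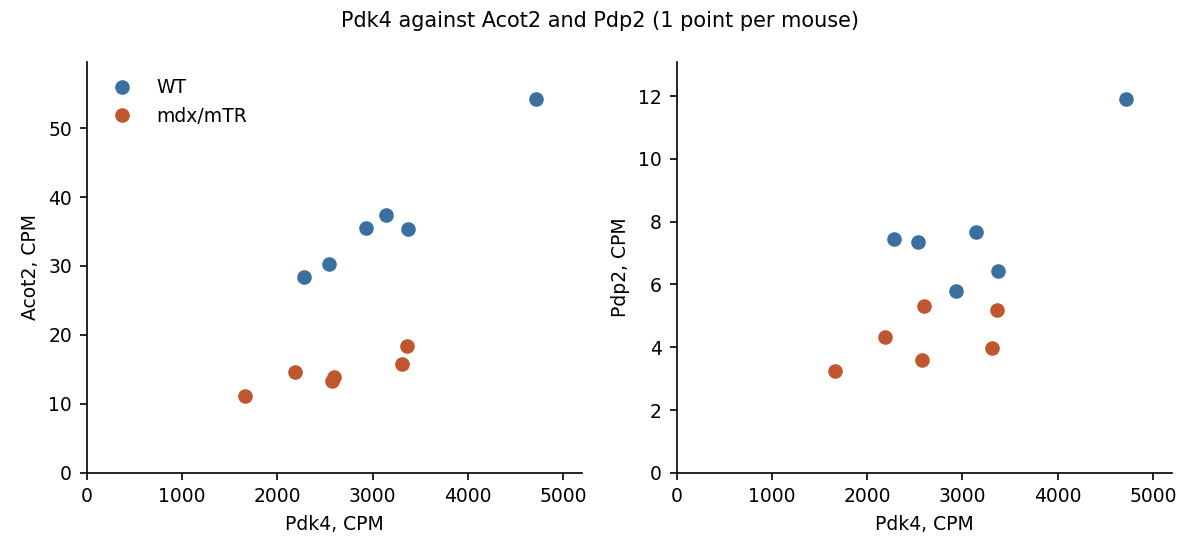
Level of Acot2 (left) and Pdp2 (right) against that of Pdk4, in CPM, with 1 point per mouse. In both panels WT replicate 4 lies at the upper right (4714 CPM of Pdk4), and all mdx/mTR points lie below all WT points in the level of Acot2 or Pdp2.

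The correlation of Pdk4 with Pdp2 was 0.61 over the 12 libraries, 0.35 without WT replicate 4 and -0.057 without both that library and mdx/mTR replicate 5. It rested on these 2 mice.

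Other genes that feed or serve the complex were taken from 6 lists and are described by their counts. Beside these counts, 25.0% of all tested genes were called higher and 23.4% lower with TMM scaling. With library totals alone 5596 of 13937 were called higher and 1560 lower, with a median of 0.17. Scaled to the muscle fibre markers, 4995 were called higher and 1074 lower, with a median of 0.21. Of 13 genes of pyruvate supply and use, 8 fell and 1 rose, with a median log2 fold change of -0.32. Me1, the cytosolic malic enzyme, fell from 185 ± 19.2 to 106 ± 19.8 CPM (-0.81, edgeR adjusted p 8.0e-05). Mpc1, a subunit of the mitochondrial pyruvate carrier, fell from 36.5 ± 2.09 to 28.0 ± 3.87 CPM (-0.38, adjusted p 0.0020), and its partner Mpc2 fell as well (-0.32, adjusted p 0.0057). With library totals alone Mpc2 did not pass (adjusted p 0.0613), and with scaling to the muscle fibre markers neither carrier gene did (adjusted p 0.0769 and 0.175). The split of the list with library totals alone was 5 lower and 3 higher. The single rise was that of Me2, a mitochondrial malic enzyme, from 4.17 ± 0.835 to 7.92 ± 1.79 CPM (0.92, adjusted p 3.1e-04). The genes of lactate dehydrogenase A and pyruvate kinase, Ldha (0.06, adjusted p 0.535) and Pkm (0.11, adjusted p 0.248), did not pass with TMM scaling. Both were called higher with library totals alone (Ldha 0.21, adjusted p 0.0037; Pkm 0.26, adjusted p 8.2e-04) and scaled to the muscle fibre markers (0.25, adjusted p 0.0071, and 0.29, adjusted p 0.0014).

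Among 13 tested genes of cofactors and other subunits, 5 fell and 0 rose, with a median of -0.15. The smallest p-value belonged to Pdpr, the regulatory subunit of the phosphatase, which fell from 170 ± 4.86 to 117 ± 11.2 CPM (-0.55 ± 0.06 SE, edgeR adjusted p 1.2e-05) without overlap of the groups (165 to 179 and 96.8 to 126 CPM). It kept its call with library totals alone (-0.39, adjusted p 3.6e-05) and scaled to the muscle fibre markers (-0.36, adjusted p 4.2e-04). Slc19a3 did not pass the filter on low counts. With library totals alone the median of this list was 0.0057 (0.17 over all tested genes), with 2 genes called lower and 1 called higher.

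The related complexes for 2-oxoglutarate and branched-chain keto acids are built on the same plan. Of their 7 genes 4 fell and 0 rose, with a median of -0.23. Dbt, the E2 of the branched-chain complex, fell from 47.3 ± 3.12 to 34.0 ± 3.66 CPM (-0.48, edgeR adjusted p 1.3e-04), and Bckdhb from 29.5 ± 2.64 to 22.4 ± 4.17 CPM (-0.40, adjusted p 0.0116). Only 1 of the 7, Dbt, was called with library totals alone, which was also the count scaled to the muscle fibre markers.

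**Figure D5:**
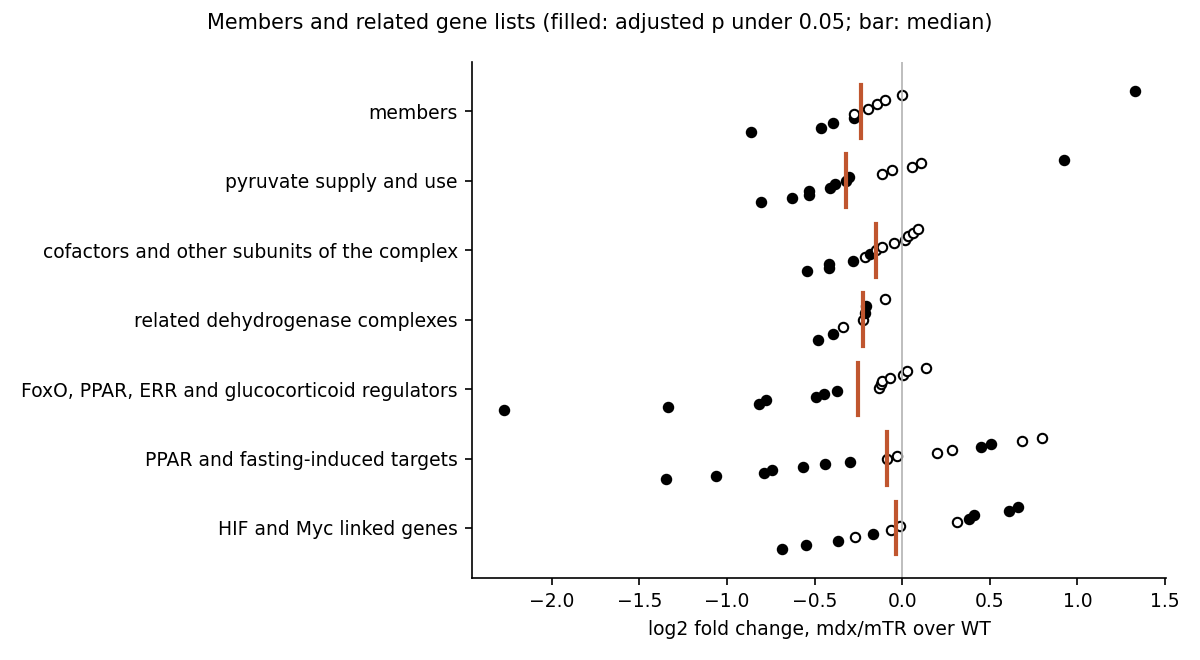
Log2 ratio of mdx/mTR to WT for each tested gene of the members and of 6 further lists (1 circle per gene, filled where the adjusted p was under 0.05), with the median of each list as a bar. With TMM scaling the medians of all 7 lists lie below 0, where that of all tested genes is 0.01. With library totals alone 3 of the 7 (cofactors, PPAR and fasting-induced targets, HIF and Myc linked genes) lie above 0. All 3 lie below the median of all tested genes at that scaling, 0.17. The farthest single value is that of Esrrb at -2.27.

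Transcription factors known to act on Pdk4 or its relatives were read out next. Of 14 genes of FoxO, PPAR, ERR and glucocorticoid regulators, 7 fell and 0 rose, with a median of -0.25. The receptor gene Esrrb fell from 9.07 ± 1.29 to 1.91 ± 0.905 CPM (-2.27, edgeR adjusted p 7.9e-06), and Esrrg from 39.0 ± 4.20 to 15.5 ± 5.22 CPM (-1.33, adjusted p 5.4e-05). Ppara, the fatty acid receptor PPAR alpha, fell as well (-0.82, adjusted p 4.2e-04). Foxo1 (0.0051, adjusted p 0.985), Foxo3 (0.03, adjusted p 0.757) and Nr3c1 (-0.12, adjusted p 0.0988), the glucocorticoid receptor gene, did not pass with TMM scaling. Foxo3 was called higher with library totals alone (0.18, adjusted p 0.0387) and scaled to the muscle fibre markers (0.22, adjusted p 0.0475), and the value of Nr3c1 was then above 0 (0.032 and 0.067) without a call. Under both scalings the list had 7 falls, and Foxo3 was its 1 rise. Of 13937 tested genes, 5596 and 4995 were called higher under these scalings.

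Of 15 PPAR and fasting-induced targets, 7 fell and 2 rose, with a median of -0.09. Besides Acot2, Fabp3, a fatty acid carrier of muscle, fell from 140 ± 27.2 to 67.3 ± 21.9 CPM (-1.06, edgeR adjusted p 3.1e-04). Sesn1, a stress-responsive gene, rose from 27.4 ± 3.27 to 37.3 ± 2.57 CPM (0.45, adjusted p 3.7e-04). With library totals alone the split was 5 lower and 4 higher, and the median was 0.063 (0.17 over all tested genes).

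For Pdk1 and Pdk3, 12 HIF and Myc linked genes were read out. Of these 4 rose and 4 fell, with a median of -0.04. Egln1, an oxygen-sensing prolyl hydroxylase, fell from 423 ± 16.8 to 290 ± 40.0 CPM (-0.55, edgeR adjusted p 1.3e-04) and Epas1, which encodes HIF-2 alpha, from 345 ± 31.1 to 215 ± 41.2 CPM (-0.68, adjusted p 3.0e-04). Hif1a rose from 30.8 ± 2.55 to 40.1 ± 4.70 CPM (0.38, adjusted p 0.0014), and Ankrd37 from 1.33 ± 0.312 to 2.11 ± 0.350 CPM (0.66, adjusted p 0.0054). With library totals alone the split was 6 higher and 2 lower, and the median was 0.11 (0.17 over all tested genes).

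In the authors' deposited table, 6 of the 10 members had an adjusted p under 0.05, the 5 named above and Dlat. The share of all genes past that threshold in their table was not computed. With DESeq2 run here on the deposited counts, 6951 of 13937 tested genes were called, and 6 of the 10 members. The authors' deposited table gives log2 fold changes of 1.25 for Pdk3, -0.83 for Pdp2, -0.47 for Pdk1, -0.40 for Pdhx, -0.28 for Pdk2 and -0.20 for Dlat (adjusted p 0.0322). For Pdk4 the authors' deposited table gives -0.27 (adjusted p 0.199).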

How the data were processed

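Messenger RNA of the tibialis anterior of 12 mice was counted by the authors, who deposited whole-number counts per gene symbol, 1 column per mouse, and a second table of their comparison. The submitters' processing notes name FastQC, STAR, DESeq2 and mm10 without versions. The counter, the annotation and strand handling are not given in the sources used here. Per the file headers, the authors' deposited table gives a normalized signal averaged over samples, the log2 fold change and its error, the score of the test, and raw and adjusted p-values.

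The deposited counts were tested with edgeR 4.0.16 in R 4.3.3: filterByExpr, trimmed mean of M-values (TMM), glmQLFit and glmQLFTest with group as the only term, and Benjamini-Hochberg adjustment over all 13937 genes with a threshold of 0.05. These genes held 99.97% of counts. The SE is the log2 fold change divided by the square root of F. CPM uses TMM-scaled totals; levels per kilobase divide by the longest coding transcript of GENCODE M21. A count of 3, the floor, is 0.0460 to 0.0837 CPM, for counting error only. Between libraries of a group chi-square per degree of freedom was at least 8.87, so none was a duplicate. The procedure was tested on simulated data. The labels do not say whether libraries are separate animals, and each was taken as 1 mouse; if not, p-values measure only the spread between samples. Of the per-sample columns, 0 were left unmatched.

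The members and lists were chosen with earlier results of these data known. Genes named are the members, Dmd and Terc, the 2 smallest p-values per direction in each list, and the 5 genes most like Pdk4 and Pdha1; Mpc2, Ldha, Pkm, Ppara, Foxo1, Foxo3 and Nr3c1 were named after their values were seen. Some genes that this rule names are not reported here. Mymk is listed as Tmem8c. DESeq2 1.42.0, limma 3.58.1, other scalings and filters, a replicate block and each mouse left out were the alternatives. Python 3.11.15 was used for levels and figures.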

Additional observations from a re-analysis of the deposited data

Results flagged for a closer look

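A mouse was singled out where more than 0.625 of the spread of its 6-mouse group lay between it and the next mouse. This was so in 3 of 50 sets (levels of the members, their ratios and the kinase shares), where chance gives 2.5, or 1 in 20. All 3 lay in WT. Pdp2 stood at 11.9 CPM in WT replicate 4 against 5.81 to 7.69 CPM in the other WT libraries. The ratio of Pdk4 to Pdha1 per length was 5.75 in the same library against 2.45 to 3.64. The share of Pdk3 in the kinase mRNA was 0.0845% in WT replicate 2 against 0.0342% to 0.0520%.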

How the results depend on the processing

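The calls of Pdk1, Pdk3 and Pdp2 held under every alternative run, with log2 fold changes of -0.50 to -0.28, 1.24 to 1.53 and -0.94 to -0.64. The number of members called was 4 (1 higher, 3 lower) with library totals alone, where 7156 of 13937 tested genes were called. Of those 7156, 5596 were higher and 1560 lower. With scaling to the 10 muscle fibre markers 3 members were called (1 higher, 2 lower), against 6069 of 13937 tested genes (4995 higher, 1074 lower). Without any single mouse 5 or 6 members were called, and 6125 to 6816 genes in all. Without WT replicate 2 and mdx/mTR replicate 5, or without WT replicate 4 and mdx/mTR replicate 5, 5 members were called (6455 and 5882 genes in all). The fibre marker scaling and both pairs left out were chosen after seeing the data. Library totals and fibre markers move the median of all genes to 0.17 and 0.21. The TMM factors, which library totals alone leave out, were 0.929 to 0.971 in WT and 0.988 to 1.16 in mdx/mTR. With library totals and with fibre markers, cofactor genes called numbered 3 (1 higher, 2 lower) and 2 (1 higher, 1 lower). Genes of the related complexes called numbered 1 and 1. At an adjusted p under 0.01 the related complexes had 1 call and the HIF and Myc linked genes 5, with 4621 genes called in all. Signs turned for members that were not called: Pdha1 (0.0078 with library totals, 0.043 with fibre markers), Pdhb (0.056 and 0.093), Dlat (0.0016 with fibre markers) and Pdp1 (-0.0023 without a filter, -0.0047 with DESeq2 size factors, -0.0047 in DESeq2, -0.0665 without WT replicate 4 and mdx/mTR replicate 5, and -0.044 to 0.0599 without single mice). The cause of these changes was not tested. Not divided by length, the shares in WT and mdx/mTR were 2.44% and 2.12% for Pdk1, 16.2% and 16.1% for Pdk2 and 81.3% and 81.7% for Pdk4. The groups share replicate numbers, but only 2 of 6 same-numbered pairs had deviations correlated above 0.1, and 2 of 6 WT libraries matched best with their own number, which does not make them pairs. Fitted with a replicate block, 6420 genes were called in place of 6736, and 5 members. Depth was lowest for Pdk3 among the members, at 30 to 60 counts per WT library.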

Other observations

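WT replicate 4 differed from the other WT mice in several genes that fasting is known to induce. It was the highest WT library for Pdk4 (4714 CPM against 2279 to 3377 CPM) and Acot2 (54.2 CPM against 28.4 to 37.4 CPM). It was also the highest for Pdp2, which is not among those genes. Over the 15 PPAR and fasting-induced targets it was the highest WT library for 7, whereas it was the highest for 15.5% of all tested genes. This was not particular to WT replicate 4. Within mdx/mTR, replicate 1 was the highest for 7 of the 15 (17.9% of all tested genes) and replicate 3 for 5 (12.5%). WT replicate 4 was the lowest WT library for 4 of the 10 members, against 15.3% of all tested genes. The feeding state of the mice is not given in the labels, and its part in these values was not tested.

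WT replicate 2 had the highest summed level of slow and oxidative fibre markers (2243 CPM, against 701 CPM in the lowest WT library). This mouse was the highest WT library for 5 of the 7 genes of the related complexes and 7 of the 13 tested genes of cofactors and other subunits, against 25.6% of all tested genes. Among the 13 genes of pyruvate supply and use, WT replicate 2 was the highest WT library for 6 and the lowest for 6 (23.5% of all tested genes). Within mdx/mTR, replicate 2 had the highest slow and oxidative fibre markers (666 CPM). It was the highest mdx/mTR library for 7 of the 13 cofactor genes (15.6% of all tested genes). Of the 7 genes of the related complexes it was the highest for 1 and the lowest for 4 (19.6%). The part of fibre type in these values was not tested.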
